A study of Mus musculus with 6 samples.

Results

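The 10 genes described here encode kinases, transcription factors and feedback inhibitors of JAK-STAT signalling: Jak1, Jak3, Stat3, Stat5a, Stat5b, Stat6, Socs1, Socs2, Socs3 and Cish. They were chosen by symbol, and all 10 were found among the 52636 genes of the count table. RNA sequencing compared lung innate lymphoid cells (ILCs) sorted without KLRG1 (3 libraries, KLRG1-negative) and with it (3 libraries, KLRG1-positive). Every mouse was a wild-type C57BL/6 carrier of the 4get allele, a GFP reporter at Il4, and every mouse had been given 500 ng of interleukin-33 intraperitoneally for 4 days before being killed on day 5. Cells were lineage-negative and CD90-positive by the labels, and the protocol names the KLRG1-positive gate as high for KLRG1. Whether the libraries of a population came from different mice is not given, and the p-values therefore cover library-to-library spread alone, part of which may be technical.

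Most receptors of the lymphocyte cytokines have no enzyme of their own and carry Janus kinases (JAKs) on their tails. A bound receptor activates its JAKs, which phosphorylate STAT proteins, and the STATs then enter the nucleus and switch on target genes. Among those targets are the SOCS family genes, whose proteins dock on receptors or JAKs and damp the signal. Group 2 ILCs (ILC2) are supported by interleukin-7, interleukin-2, interleukin-9 and thymic stromal lymphopoietin through this pathway, whereas the interleukin-33 receptor signals through MyD88 instead.

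The labels were checked on Klrg1, a lectin-like receptor, which stood at 13.1, 193 and 73.2 CPM in KLRG1-negative libraries, against 1485, 1786 and 1327 CPM in KLRG1-positive ones. CPM is the usual depth-scaled count, taken here on library totals adjusted by TMM, and the libraries held 17323004 to 23946073 assigned counts. The 13 ILC2 markers summed to 2128 to 5252 CPM in KLRG1-negative and 9272 to 11464 CPM in KLRG1-positive libraries, with 9 of 13 markers higher in every KLRG1-positive library. Transcripts of other cells were present, and T cell, B cell, NK and ILC1, and fibroblast markers leaned to the KLRG1-negative libraries. Not all lists did so. The 3 endothelial markers summed to 340, 105 and 192 CPM in KLRG1-negative and 195, 151 and 95.5 CPM in KLRG1-positive libraries. Of these, 0 had groups without overlap, and the same was true of the macrophage and neutrophil markers given below. The 10 T cell markers summed to 1324 to 4842 against 490 to 625 CPM, and 7 of them were lower in every KLRG1-positive library. The 8 B cell markers summed to 7317 to 28489 against 2453 to 8487 CPM (7 of 8 lower), the 8 NK and ILC1 markers to 514 to 1677 against 116 to 446 CPM (4 of 8 lower), and the 6 fibroblast markers to 3849 to 10773 against 4.66 to 26.8 CPM (6 of 6 lower). Of all tested genes, 9.46% were higher and 15.2% lower in every KLRG1-positive library. No marker of these lists was at 0 in all 3 libraries of a population.

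None of the 10 JAK, STAT and SOCS genes passed the test between the populations. By edgeR's quasi-likelihood test at an adjusted p of 0.05 over all 15197 tested genes, 0 of the 10 were called as higher and 0 as lower. Of all tested genes 1.34% were called, 0.125% as higher and 1.21% as lower. All 10 genes passed the filter on low counts. At an unadjusted p under 0.05, 2 of the 10 would be called, against 15.7% of all tested genes: Jak3 as higher (4.19% of all) and Socs3 as lower (11.5%) in KLRG1-positive cells. DESeq2, another count test, called 1 of the 10, Socs3, as lower, where it called 11.3% of all genes (2.28% higher, 9.06% lower). With the library number as a block, DESeq2 again called Socs3 alone (15.2% of all genes), and edgeR called 0 of the 10 (0.349%). The limma-trend fit called 0 of the 10 as well (4.92%). The 10 genes had a median log2 fold change of -0.03 (KLRG1-positive over KLRG1-negative), against -0.05 for all tested genes. In bulk samples such as these, fewer cells of a type and less RNA per cell cannot be told apart.

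**Figure D1:**
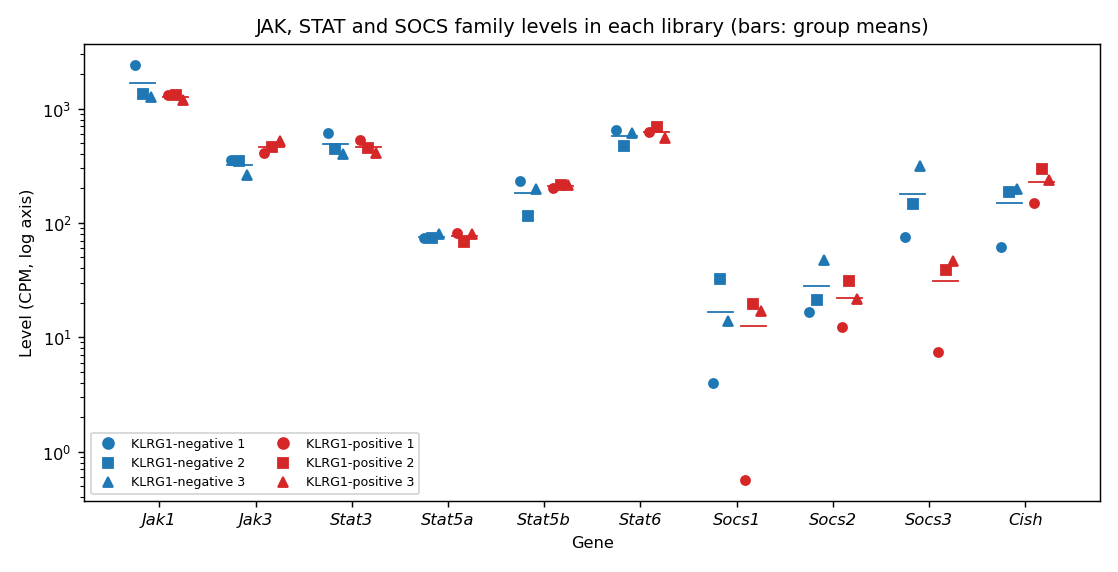
Level of each gene in CPM (log axis) in the 3 KLRG1-negative (blue) and 3 KLRG1-positive (red) libraries, with the library number as the symbol and short bars at the group means. Socs3 and Jak3 are the genes whose groups do not overlap, and the circles (library number 1) lie lowest in both populations for Socs1, Socs2, Socs3 and Cish.

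The kinases differed little, with Jak3 leaning higher in KLRG1-positive cells. Jak3, the kinase bound to the common gamma chain, lies on chromosome 8 (GRCm38, 71676296 to 71690575, plus strand). It stood at 354, 348 and 261 CPM in KLRG1-negative libraries, against 409, 465 and 516 CPM in KLRG1-positive ones. Every KLRG1-positive library was above every KLRG1-negative library, as for 9.46% of all tested genes. The means were 321 ± 51.9 and 463 ± 53.5 CPM (SD, n = 3 each), a 1.44-fold difference with a log2 fold change of 0.53 ± 0.19 (SE) that did not pass (edgeR adjusted p = 0.252). Of the exon bases of Jak3, 404 (7.55%) are shared with Insl3 on the same strand, and ambiguous reads there were not counted.

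Jak1, the partner kinase on the gamma chain receptors and a kinase of the interferon and interleukin-6 family receptors, lies on chromosome 4 (101152367 to 101265282, minus strand). It stood at 2414, 1349 and 1270 CPM in KLRG1-negative libraries, against 1305, 1324 and 1175 CPM in KLRG1-positive ones. KLRG1-negative library 1 stood alone, at 1.90 times the lowest library of its population, and the other 5 libraries lay close together. The log2 fold change was -0.40 ± 0.28 (adjusted p = 0.596), and -0.04 without KLRG1-negative library 1. Per length, Jak1 exceeded Jak3 5.05-, 2.87- and 3.60-fold in the KLRG1-negative and 2.36-, 2.11- and 1.69-fold in the KLRG1-positive libraries. This ratio is taken within a library and so does not depend on scaling between libraries. It was lower in every KLRG1-positive library, and it was chosen after the values were seen and was not tested.

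The 4 STAT genes had overlapping groups, and none passed the test. Stat5a, 1 of the paired factors that gamma chain cytokines activate, stood at 74.1, 73.8 and 79.1 CPM in KLRG1-negative and at 80.9, 68.4 and 79.2 CPM in KLRG1-positive libraries (chromosome 11, 100859351 to 100885169, plus strand). Its groups overlapped fully, with a log2 fold change of 0.01 ± 0.18 (adjusted p = 0.99). Stat5b, its close paralog, stood at 231, 115 and 197 against 202, 213 and 216 CPM (chromosome 11, 100780731 to 100850724, minus strand). The KLRG1-positive libraries were nearly level, while KLRG1-negative library 2 had 0.539 times the Stat5b of KLRG1-positive library 2 (log2 fold change 0.22 ± 0.28, adjusted p = 0.812).

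Per length, Stat5b exceeded Stat5a in all 6 libraries, 2.00- to 4.02-fold in KLRG1-negative and 3.21- to 4.00-fold in KLRG1-positive libraries. Reads that map to more than 1 place were not counted, so the levels of these near-identical paralogs are uncertain. Stat5b, Stat5a and Stat3 are neighbours on chromosome 11. Stat5b and Stat5a are 8626 bases apart, and Stat5a and Stat3, on opposite strands, share 72 exon bases, where unstranded reads were left out as ambiguous.

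Stat3, the factor of interleukin-6 family, interleukin-10 and interleukin-23 signals, stood at 616, 444 and 398 CPM in KLRG1-negative and 528, 451 and 409 CPM in KLRG1-positive libraries (chromosome 11, 100885098 to 100939540, minus strand). Number 1 was highest and number 3 lowest in both populations, and the groups overlapped (log2 fold change -0.07 ± 0.22, adjusted p = 0.936). Stat6, the factor of interleukin-4 and interleukin-13 signals, stood at 648, 474 and 615 against 626, 695 and 548 CPM (chromosome 10, 127642986 to 127660957, plus strand). Its groups overlapped as well (0.10 ± 0.19, adjusted p = 0.878). The mean levels of these 4 STAT genes thus differed by 1.01- to 1.16-fold between populations in the fit, less than their standard errors.

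**Figure D2:**
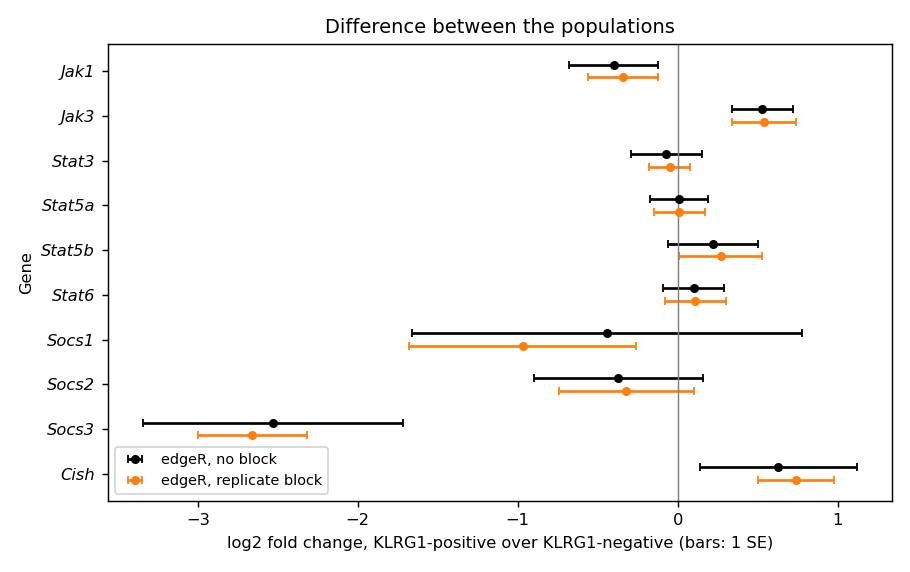
log2 fold change of each gene, KLRG1-positive over KLRG1-negative, with 1 standard error, from edgeR without (black) and with (orange) the library number as a block. Socs3 lies farthest from 0, at -2.53 and -2.66, and its standard error narrows from 0.81 to 0.34 with the block.

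The SOCS family inhibitors had the widest ranges within a population, and Socs3 and Cish leaned in opposite directions. Socs3, which binds the shared interleukin-6 family receptor chain gp130 and is a classical STAT3 target, stood at 74.9, 145 and 312 CPM in KLRG1-negative libraries, against 7.38, 38.5 and 46.4 CPM in KLRG1-positive ones (chromosome 11, 117966079 to 117970047, minus strand). Every KLRG1-positive library was below every KLRG1-negative library, as for 15.2% of all tested genes. The means were 178 ± 122 and 30.8 ± 20.6 CPM, a 5.77-fold difference (log2 fold change -2.53 ± 0.81). The difference did not pass edgeR (adjusted p = 0.199, and 0.0723 with the library number as a block). It passed DESeq2 (adjusted p = 0.0113 without and 1.74e-11 with the block). A log2 fold change of at least this size was seen in 10.2% of all tested genes.

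Between libraries of the same number, Socs3 was 10.2-, 3.78- and 6.73-fold lower in KLRG1-positive cells for numbers 1, 2 and 3. A KLRG1-positive library below its KLRG1-negative partner in all 3 numbers was found for 25.1% of tested genes. The Socs3 level of the KLRG1-negative libraries had the same order as their summed fibroblast markers, 3849, 6640 and 10773 CPM for libraries 1, 2 and 3. By gene, the fibroblast markers Lum and Pdgfra were lowest in library 2 instead. In the KLRG1-positive libraries the fibroblast markers summed to 26.8, 18.9 and 4.66 CPM, the opposite order to Socs3. Other lists did not follow Socs3 in the KLRG1-negative libraries. T cell markers (4842, 2353 and 1324 CPM) and NK and ILC1 markers (1677, 951 and 514 CPM) had the opposite order. B cell markers (27128, 7317 and 28489 CPM) had neither order. The part of fibroblasts, T cells, B cells and NK cells in the Socs3 difference was not tested. Macrophage and neutrophil markers (6 of 6 found) summed to 342, 165 and 47.3 against 286, 222 and 41.1 CPM, and 0 of them had groups that did not overlap.

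Cish, a STAT5 target whose protein CIS restrains interleukin-2 family and antigen receptor signals, stood at 61.2, 186 and 196 CPM in KLRG1-negative and at 149, 298 and 236 CPM in KLRG1-positive libraries (chromosome 9, 107296026 to 107302784, plus strand). The groups overlapped, since KLRG1-positive library 1 lay below KLRG1-negative libraries 2 and 3. The means were 148 ± 75.0 and 228 ± 74.7 CPM, a log2 fold change of 0.63 ± 0.49 that did not pass (edgeR adjusted p = 0.643, 0.22 with the block, and 0.0664 in DESeq2 with the block). Within numbers 1, 2 and 3 Cish was 2.44-, 1.61- and 1.21-fold higher in KLRG1-positive cells, a direction shared in all 3 numbers by 21.7% of tested genes. Of its exon bases, 740 (11.5%) are shared with the minus-strand genes Gm17041 and Gm17040, and the counting took no account of strand.

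The ratio of Socs3 to Cish did not overlap between the populations, as Socs3 alone did not. The number of Socs3 counts per Cish count was 1.22, 0.784 and 1.59 in the KLRG1-negative libraries and 0.0494, 0.129 and 0.197 in the KLRG1-positive libraries. The lowest KLRG1-negative ratio was thus well above the highest KLRG1-positive one. Socs3 counts per Stat3 count were 0.122, 0.327 and 0.785 against 0.0140, 0.0854 and 0.113, without overlap but with the nearest libraries of the populations close together. Socs2 counts per Cish count did not overlap either (0.269, 0.114 and 0.24 against 0.0826, 0.105 and 0.0917). Socs1 counts per Cish count and Cish counts per Stat5b count overlapped. The share of other gene pairs without overlap was not computed. These ratios need no scaling between libraries. They were chosen after the values were seen and were not tested.

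The promoter windows of Cish and Socs3 held a STAT motif. RefSeq promoter windows (GRCm38.p6, 250 bases before to 50 after a start) were found for 9 of the 10 genes in 11 windows (none for Socs2, which was not searched), and were searched for TTCNNNGAA, the palindrome that STAT dimers bind, and for the wider form with 1 more base between the arms that STAT6 also binds. Each motif is its own reverse complement, so a search covers both strands, and the forms cannot start at the same base. The first motif was found in the windows of 2 of the 9 genes, and in 8.3% of 32851 windows of all genes. The second was found in 0 of the 9, and in 6.95% of all windows. The Cish window held 2 copies, as did or exceeded 0.457% of all windows. The 30 bases around them (chr9:107296654-107296683, plus strand) run from 5 bases before to 25 bases after the RefSeq start. Both copies lie wholly after that start. All 250 bases before that start overlap annotated exons, and the gene of those exons was not recorded. The deposited Cish model begins upstream of the window, at 107296026. The Socs3 window held 1 copy, shown in the 165 bases that lie outside annotated exons (chr11:117969452-117969616, minus strand, 250 to 86 bases before the RefSeq start). The deposited Socs3 model also begins upstream of its window, at 117970047 on the minus strand. The Socs3 stretch thus lies within the span of that gene model. These stretches are shown because they hold the only matches among the 9 genes searched, and capitals mark the TTC and GAA arms.
Cish: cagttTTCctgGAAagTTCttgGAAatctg
Socs3: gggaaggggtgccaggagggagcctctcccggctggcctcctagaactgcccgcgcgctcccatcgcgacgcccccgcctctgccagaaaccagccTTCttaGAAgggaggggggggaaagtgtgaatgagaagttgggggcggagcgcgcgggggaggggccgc
A match describes letters in a window and is not a measured binding site.

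Socs1, which blocks JAK kinase activity directly and is induced by interferons and gamma chain cytokines, stood at 4.01, 32.3 and 13.9 CPM in KLRG1-negative and at 0.563, 19.7 and 16.8 CPM in KLRG1-positive libraries (chromosome 16, 10783808 to 10785536, minus strand). Both populations held a library far below the other two, and the groups overlapped (log2 fold change -0.44 ± 1.22, adjusted p = 0.927). Its lowest value rests on 10 counts, and its highest on 818. Socs2, best known as a brake on growth hormone signalling, stood at 16.5, 21.1 and 47.0 against 12.3, 31.3 and 21.7 CPM (chromosome 10, 95385362 to 95417180, minus strand). The groups overlapped (-0.37 ± 0.53, adjusted p = 0.835), and neither gene kept 1 direction within the 3 numbers.

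**Figure D3:**
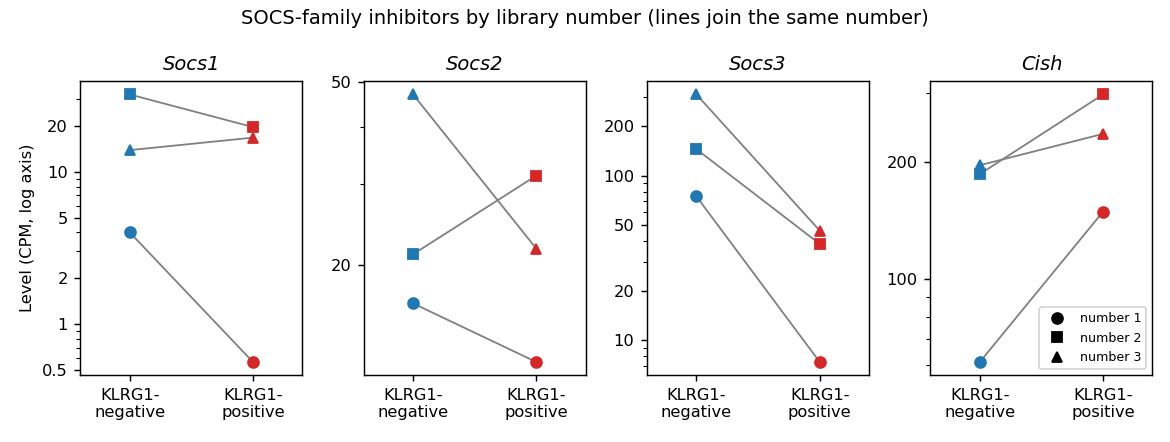
Levels of Socs1, Socs2, Socs3 and Cish in CPM (log axes that differ between panels), with lines joining the KLRG1-negative and KLRG1-positive library of the same number. All 3 lines slope down for Socs3 and up for Cish, and number 1 is the lowest point on both sides of all 4 panels.

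The 4 inhibitors of the set also shared their lowest library number, while the order of the other numbers differed between them. For all 4 of Socs1, Socs2, Socs3 and Cish, number 1 was the lowest library in both populations, and for 0 of the 6 kinase and STAT genes, against 18.7% of all tested genes. The same held for 1 of the 5 other JAK and STAT genes, 1 of the 4 other SOCS genes and 3 of the 11 other negative regulators. It held for 1 of the 4 SOCS ubiquitin ligase partners, 3 of the 27 receptor chains (11.1%) and 5 of the 14 STAT targets. This pattern was noticed after the values were seen and has no test. Socs3 ranged 4.17-fold within the KLRG1-negative and 6.30-fold within the KLRG1-positive libraries, Cish 3.20- and 2.00-fold, Socs1 8.05- and 35.0-fold, and Socs2 2.86- and 2.54-fold. The kinase and STAT genes ranged at most 2.02-fold within a population, the most being Stat5b in KLRG1-negative cells. The number 1 libraries also had the fewest counts of their population (17898268 and 17323004). They alone held more than traces of the surfactant gene Sftpc, at 366 and 330 CPM against at most 2.33 CPM elsewhere. Summed macrophage and neutrophil markers were also highest in the number 1 libraries, at 342 and 286 CPM, with Lyz2 the largest part (241 and 215 CPM). By gene, Lyz2 and Marco were highest in number 1 of both populations, and Csf1r and S100a8 in number 2 of both. Itgam and Adgre1 differed in this between the populations. The part of these in the pattern was not tested.

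By level per length, Jak1, Stat6 and Jak3 led the set in KLRG1-positive cells and Socs2 closed it. Levels are compared between genes as CPM per kb of the deposited gene length. In KLRG1-positive libraries the order was Jak1 (175 ± 11.2 CPM per kb), Stat6 (141 ± 16.7), Jak3 (86.5, range 76.4 to 96.4), Stat3 (48.6 ± 6.34), Stat5b (37.9 ± 1.37), Cish (35.5 ± 11.6), Stat5a (10.7 ± 0.954), Socs3 (10.6 ± 7.14), Socs1 (10.1 ± 8.46) and Socs2 (2.29 ± 0.998). Stat5b and Cish overlapped in range, as did neighbours from Stat5a down to Socs2, and the other neighbours did not. Jak1 and Stat6 stood above 98.7% and 97.7% of all tested genes by the mean level per kb over all 6 libraries, and Socs2 above 35.0%.

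The KLRG1-negative libraries had the same top and bottom, with Jak1 at 232 ± 88.4 and Socs2 at 2.96 ± 1.73 CPM per kb. Socs3 took the place behind Stat6 there, at 61.4 ± 42.2 CPM per kb, beside Jak3 at 60.0 ± 9.70 and Stat3 at 51.0 ± 12.1. Its range of 25.9 to 108 CPM per kb overlapped both of its neighbours. Stat5b (32.7 ± 10.8), Cish (23.0 ± 11.7), Socs1 (13.7 ± 11.7) and Stat5a (10.6 ± 0.419) followed, each overlapping the next. Jak1 above Stat6 and Stat5a above Socs2 were the neighbours without overlap. The deposited lengths cover all exons of a gene model, and which exons these cells use was not measured, so levels per length are approximate.

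**Figure D4:**
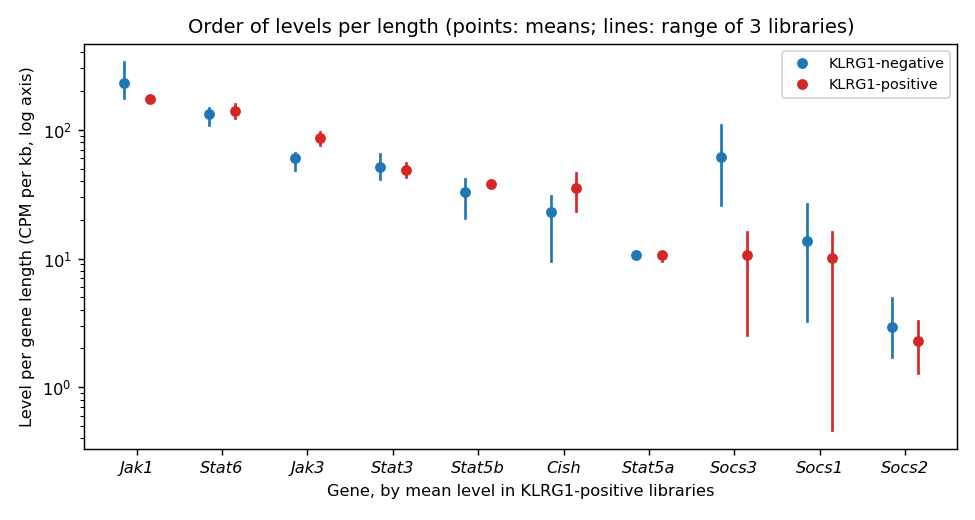
Level per gene length in CPM per kb (log axis), ordered by the KLRG1-positive mean, with points at the means and lines over the range of 3 libraries in KLRG1-negative (blue) and KLRG1-positive (red) cells. The Socs3 means are 61.4 and 10.6 CPM per kb, while the means of the 4 STAT genes nearly coincide.

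The rest of the pathway was read from 6 lists that hold none of the 10 genes. Of 5 other JAK and STAT genes, 0 passed (median log2 fold change 0.03, 1 without overlap). Of all tested genes, 24.6% were without overlap in either direction. Tyk2, the kinase of interferon and interleukin-12 receptors, stood at 277, 232 and 268 against 313, 299 and 240 CPM. Stat4, the interleukin-12 factor, stood at 175, 73.1 and 68.8 against 128, 106 and 90.4 CPM, with overlapping groups. Jak2 had the largest positive value (0.48 ± 0.50, adjusted p = 0.755).

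Of 4 other SOCS genes 0 passed (median -0.23, 0 without overlap). Socs4 stood at 18.2 to 33.7 against 21.2 to 22.9 CPM and Socs5 at 4.84 to 22.3 against 4.56 to 19.0 CPM. Socs5 also had the largest negative value (-0.33 ± 0.76) and Socs7 the largest positive one (0.11 ± 0.57). The partners that a SOCS box recruits to form a ubiquitin ligase had 0 of 4 genes past the test (median 0.31). Elob and Eloc, the elongins B and C, had log2 fold changes of 0.51 ± 0.24 and 0.43 ± 0.20, and Cul5, the cullin scaffold, -0.47 ± 0.23 (adjusted p = 0.384, 0.392 and 0.4). All 4 had groups without overlap, 3 higher and 1 lower, where 9.46% of all tested genes were higher and 15.2% lower in this way.

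Among 11 other negative regulators, 0 passed (median -0.16, 1 without overlap, against 24.6% of all tested genes). The tyrosine phosphatase gene Ptpn6, encoding SHP-1, stood at 511, 319 and 700 against 362, 217 and 248 CPM and had the largest negative value (-0.89 ± 0.34, adjusted p = 0.285). The leukocyte phosphatase gene Ptprc, encoding CD45, stood at 3256, 1429 and 1540 against 2282, 1692 and 1585 CPM, highest in number 1 of both populations. The largest positive value was that of Sh2b3, the adaptor LNK, at 0.60 ± 0.86 (adjusted p = 0.836).

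The receptor chains that carry JAKs were mixed, with 10 positive and 17 negative log2 fold changes. Of 27 chains 0 passed edgeR (median -0.40). At an unadjusted p under 0.05, 4 were higher and 8 lower, against 4.19% and 11.5% of all tested genes. By DESeq2, 3 were higher and 7 lower, against 2.28% and 9.06%. Without overlap were 4 higher and 11 lower, against 9.46% and 15.2% of all tested genes. Il2rg, the common gamma chain that Jak3 binds, stood at 894, 734 and 633 CPM in KLRG1-negative and 1359, 1360 and 1095 CPM in KLRG1-positive libraries (0.75 ± 0.20, adjusted p = 0.123). Il7r, the interleukin-7 receptor chain, stood at 803, 549 and 357 against 1001, 1015 and 507 CPM, with overlap. The largest positive value was that of Il2ra, the interleukin-2 receptor alpha chain, at 73.9, 80.4 and 153 against 363, 239 and 615 CPM (1.98 ± 0.46, adjusted p = 0.0938).

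The largest negative value was that of Il23r, a STAT3-coupled chain of type 17 cells, at 42.1, 2.44 and 4.61 CPM against 0.0563, 0 and 0 CPM. It passed with the block (adjusted p = 0.0494) and not without it (0.0689). Other chains coupled to STAT3 or to gp130 went both ways, and they were picked out after their values were seen. Il6ra stood at 57.9, 56.9 and 33.1 against 0.563, 4.11 and 2.84 CPM, and Il6st, which encodes gp130, at 308, 115 and 176 against 34.5, 19.0 and 9.37 CPM. Neither passed edgeR (adjusted p = 0.0588 and 0.0642), both passed DESeq2 (5.14e-08 and 3.24e-06), and in both every KLRG1-positive library was lower. Lifr and Osmr, which pair with gp130, had log2 fold changes of -3.18 ± 1.09 and -3.80 ± 1.82. Their adjusted p was 0.226 and 0.395 by edgeR, and 0.0108 and 0.138 by DESeq2. Lifr stood at 28.7, 11.2 and 192 against 10.5, 5.02 and 10.1 CPM, so its KLRG1-negative mean rests largely on library 3. Osmr was low, at 14.3, 1.3 and 17 against 2.25, 0 and 0.0888 CPM, and its groups overlapped. Il27ra, which also pairs with gp130, stood at 522, 422 and 312 against 498, 531 and 418 CPM, with overlap (0.20 ± 0.23). Il12rb1, the partner of Il23r in the interleukin-23 receptor, was higher in every KLRG1-positive library, at 71.5, 70.3 and 36.1 against 154, 170 and 168 CPM (1.47 ± 0.30, adjusted p = 0.0737). The interleukin-10 receptor chains Il10ra and Il10rb had values of 0.05 ± 0.21 and -0.30 ± 0.17. Lower values were not particular to the gp130 chains. Il21r (-3.25 ± 0.54, edgeR adjusted p = 0.0539) and Csf2rb (-2.97 ± 0.72, 0.106) were lower in every KLRG1-positive library. So were Il5ra (-3.67 ± 1.51, 0.314) and Il13ra1 (-3.12 ± 1.38, 0.355). Of all 27 chains, 11 were lower and 4 higher in this way. T cells and fibroblasts also express Il6st, their markers were lower in the same libraries, and their part in these values was not tested.

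Genes known as STAT targets in lymphocytes were mixed. Of 14, 0 passed edgeR (median 0.45). The unadjusted p was under 0.05 for 4 higher and 3 lower genes, where the shares of all tested genes were 4.19% and 11.5%. By DESeq2, 3 were higher and 0 lower, against 2.28% and 9.06%. Il2ra, also on the receptor list, had the largest positive value, and Mcl1, a survival factor of the BCL2 family, the largest negative one (-0.92 ± 0.38, adjusted p = 0.323). Batf, an AP-1 family factor, stood at 78.1, 108 and 61.3 against 176, 177 and 184 CPM, higher in every KLRG1-positive library (1.12 ± 0.24, adjusted p = 0.0825). Junb, of the same family, stood at 271, 2623 and 2279 against 633, 3234 and 1903 CPM, lowest in number 1 of both populations.

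**Figure D5:**
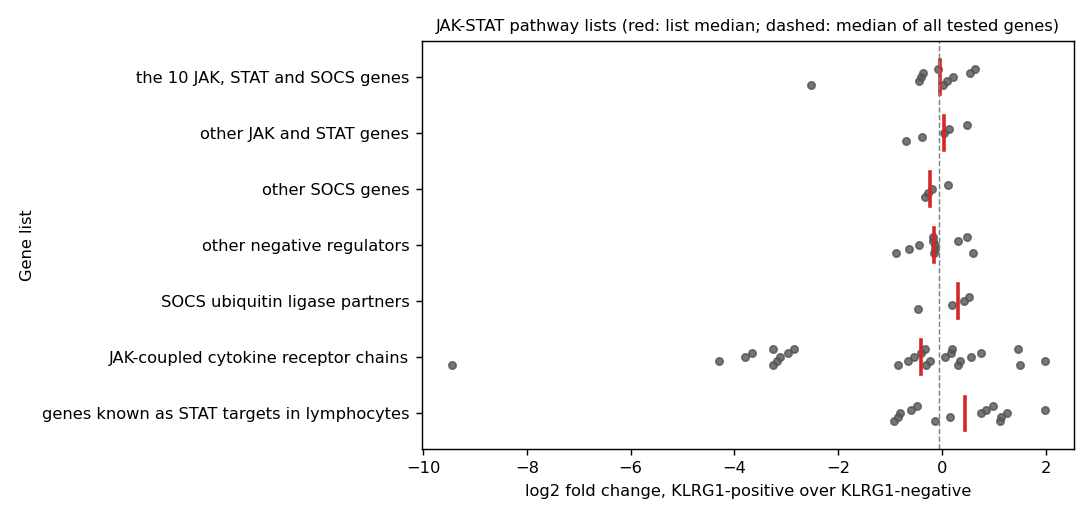
log2 fold change (KLRG1-positive over KLRG1-negative) of each tested gene of the 10-gene set and of 6 other pathway lists, with list medians in red and the median of all tested genes dashed at -0.05. The receptor chains spread from -9.45 to 1.98, and Socs3 is the 1 point of the 10-gene set beyond 1 on either side.

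Genes with a pattern like each member over the 6 libraries were named by the root mean square difference of centred log2 CPM among 9119 protein-coding genes with a mean of at least 10 CPM. Cish was followed most closely by Lilr4b (0.07 log2 units, where Cish itself spans 2.28) and Rab11fip5 (0.13). Socs3 was followed by Palld and Cd2ap, at 0.44 and 0.49 over a span of 5.39. Socs1 was followed by Ppm1m (0.14, over a span of 5.61) and Jak3 by Fxyd5 (0.07, over 0.98). With 6 libraries and 9119 candidates such likeness is a description without a test.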

How the data were processed

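The authors deposited raw counts of reads per gene, made with featureCounts 1.5.2 on Ensembl release 90 models of GRCm38, without strand and as single reads, per the file headers, which also show that reads of several places or several genes were dropped. STAR 2.4.1d, Subread 1.5.2 and bcl2fastq are listed in the submitters' processing notes. Amplified cDNA (SMARTer, Nextera XT) was sequenced, per the labels' protocols. Gene length is another deposited column. Symbols came from GENCODE M21 (52403 of 52636 identifiers). For all 10 genes but Socs1, whose M21 model is longer, the M21 start and end were the deposited ones.

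From the counts, edgeR 4.0.16 (R 4.3.3) was run with TMM factors, filterByExpr by group (15197 genes), the robust quasi-likelihood F test and Benjamini-Hochberg adjustment over all tested genes, with a threshold of 0.05. Adjusted p-values without another name are from this test, and standard errors are derived from its F statistic. DESeq2 1.42.0, limma 3.58.1, other scalings and filters, left-out libraries and the library number as a block were alternatives. Scripts were tested on simulated data. The biological coefficient of variation was 0.631.

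Library numbers from the labels are shared by the populations. The 2 libraries of a number deviated together from their populations' means across genes (r = 0.38, 0.34 and 0.19 for numbers 1, 2 and 3). The numbers were therefore read as pairs in the comparisons within numbers and in the block fits, a reading that rests on the data. The main edgeR test had no block and treated the libraries as unpaired. Named genes were the 10 members and, per list, those past the threshold, the largest positive and negative log2 fold change and the 2 most abundant per length, with 2 like genes per member, of which a part is given. The genes, lists and tests were chosen with earlier results of these data known. A listed gene that this rule would name is not reported here.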

Additional observations from a re-analysis of the deposited data

How the results depend on the processing

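The number of genes called over the whole table, 203 with edgeR, was 319 without a filter, 747 with limma-trend, 1723 with DESeq2, 53 with the replicate block and 2306 with DESeq2 and the block. Leaving out libraries gave 0 to 171 genes: 94, 4 and 0 without KLRG1-negative library 1, 2 or 3, 164, 0 and 1 without KLRG1-positive library 1, 2 or 3, and 171, 0 and 0 without both libraries numbered 1, 2 or 3. Of the 10 genes, 1 (Socs3) was called by DESeq2 with and without the block and 0 in every other fit run, the block and the left-out libraries included. The cause of these shifts was not tested.

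Jak1, Jak3, Stat5b, Socs3 and Cish kept their direction in all 18 alternatives. The log2 fold change of Socs3 lay between -2.89 and -1.83, that of Cish between 0.26 and 0.96 and that of Jak3 between 0.40 and 0.69. Stat3 turned positive without a filter (0.02), and Stat5a negative with library size alone (-0.01) and with the strict filter (-0.07). With libraries left out, Stat3 ranged from -0.18 to 0.14, Stat5a from -0.04 to 0.17, Socs1 from -0.92 to 0.59 and Socs2 from -0.78 to 0.29, so these 4 have no stable direction. The order of levels per kb used deposited lengths. With M21 lengths Socs1 and Stat5a change places in KLRG1-negative cells. Without division by length, 6 of 10 ranks moved in KLRG1-negative cells, Socs3 from 3 to 6 and Stat3 from 5 to 3 among them, and 4 of 10 in KLRG1-positive cells, where Socs3 stayed at 8. For Socs1, depth limits the lowest library, with 10 counts.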

Other observations

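Among the 14 genes known as STAT targets, 5 were lowest in number 1 of both populations, as Socs1, Socs2, Socs3 and Cish were, against 18.7% of all tested genes. Chosen after its values were seen, Pim1, a STAT5-induced survival kinase, stood at 1.5, 25.2 and 19.9 CPM in KLRG1-negative and 3.49, 46.2 and 28.6 CPM in KLRG1-positive libraries. Bcl3, an atypical inhibitor of the NF-kappaB family, stood at 3.00, 49.2 and 14.3 against 1.69, 70.9 and 72.8 CPM. Gfi1, a transcriptional repressor, stood at 1.17, 17.8 and 5.38 against 5.18, 23.6 and 29.1 CPM. In contrast, the interferon factor Irf1 was highest in number 1 of both populations, at 371, 169 and 130 against 238, 125 and 116 CPM. These values are given without a test.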
